A study of Mus musculus with 16 samples.

Results

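The genes described here are 9 fasting and peroxisome proliferator-activated receptor (PPAR) genes, Pdk4, Angptl4, Pck1, Cpt1a, Plin2, Acadm, Cd36, Ppara and Ppargc1a, of the 52525 genes that all 3 count tables of the series list. They were taken by gene symbol and had been selected on their KO and WT levels in these same libraries. The differences of the 9 genes between KO and WT are therefore given as a description. Where the text says how many of them edgeR called, the count stands beside that of all genes and is no test of the 9. RNA-seq was run on small intestine of C57BL/6 mice in 3 experiments, each with its own WT libraries. Crypts of 4 KO IEC mice (pVillin-Cre; Cul4b fn/Y, with Cul4b deleted where the villin promoter drives Cre, in the intestinal epithelium) were set against 4 WT crypt libraries. Organoids grown from crypts were sequenced as 2 KO IEC and 2 WT libraries. A further 2 KO CAG organoid libraries (CAG-CreERT2; Cul4b fn/Y, deletion induced with tamoxifen in all cells) had 2 WT libraries of their own. Cul4b is X-linked, so fn/Y animals are males, and the study's WT genotype is also given as Cul4b fn/Y, without Cre. The study gives an age range in weeks for the mice of most of its experiments, but not one for these libraries. The number of mice behind the organoid lines, and whether the WT cultures of the CAG experiment carried CreERT2 or received tamoxifen, are not given in the sources used here. The study calls its replicates biological, but the sources do not say whether the organoid replicates came from separate mice or cultures, so p-values measure the spread between these libraries, which may be technical.

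In fasting, adipose tissue releases fatty acids, and tissues that use them switch fuel. Fatty acids bind PPARα in the nucleus, which pairs with the retinoid X receptor and, with coactivators such as PGC-1α, turns on genes of fatty acid uptake, storage and oxidation and spares glucose. In the small intestine the enterocytes, which absorb dietary fat, carry PPARα and PPARδ and much of this program, and crypts hold the stem and Paneth cells below them.

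The labels were checked in the counts first. Cul4b was at 31.6, 33.1, 38.2 and 32.2 CPM (read counts scaled to the library total with TMM factors) in WT crypts and at 1.69, 0.991, 0.846 and 2.20 CPM in KO IEC crypts. In organoids Cul4b was at 83.1 and 73.1 CPM in WT against 1.68 and 1.75 CPM in KO IEC, and at 72.7 and 69.9 CPM in WT against 3.33 and 5.18 CPM in KO CAG. No KO library overlapped a WT library. Markers of intestinal epithelium (7 genes, among them Epcam, Cdh1 and Krt8) summed to between 6477 and 11569 CPM, with none at 0 in any of the 16 libraries. Adipoq and Lep, which define adipocytes, had no count in any library. The 5 adipocyte markers listed, these 2 among them, summed to at most 0.268 CPM, in WT crypt replicate 1. Libraries held 9311734 to 13479974 counts in the crypts, 15006730 to 16881395 in the IEC organoid experiment and 7348191 to 10462275 in the CAG experiment, where the floor of 3 counts is worth 0.287 to 0.408 CPM.

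The libraries were not alike within groups. In the crypts, mt-Rnr1 and mt-Rnr2, the ribosomal RNAs of mitochondria, together took 22.8, 2733, 2731 and 831 CPM in WT replicates 1 to 4 and 18.6, 20.95, 27.5 and 1104 CPM in KO IEC replicates 1 to 4. The low class thus holds 1 WT and 3 KO libraries, the middle class 1 of each, and the high class only WT, and in that class genotype and class cannot be told apart. Markers of differentiated enterocytes (8 genes, of which Apoa1, Anpep or Apob was the most abundant, depending on the crypt library) summed to 6213, 3444, 2352 and 9131 CPM in WT crypts and to 9474, 15909, 20019 and 17112 CPM in KO IEC crypts. The highest WT library lay just under the lowest KO library. In these bulk samples, fewer cells of a type and less RNA per cell cannot be told apart.

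The stretches upstream of 4 of the genes are shown because the levels of these 4 differ in the ways described here: Pck1 and Pdk4 were higher in KO than in WT libraries of all 3 experiments, and Cpt1a and Acadm were lower in KO CAG organoids. The count tables place Pck1 (ENSMUSG00000027513) at chr2:173153048-173159273 and Pdk4 (ENSMUSG00000019577) at chr6:5483351-5496309, positions that equal those of GRCm38. The bases are those of RefSeq on GRCm38.p6, read along the strand of the gene, and end before the gene as the count tables place it. Capitals mark a motif match, TTACGTCA in Pck1 and TGACCT in Cpt1a and Acadm. Pck1 (+ strand, chr2:173152823-173153047), Pdk4 (- strand, chr6:5496310-5496528), Cpt1a (+ strand, chr19:3323051-3323300) and Acadm (- strand, chr3:153944644-153944893) read as follows.
Pck1: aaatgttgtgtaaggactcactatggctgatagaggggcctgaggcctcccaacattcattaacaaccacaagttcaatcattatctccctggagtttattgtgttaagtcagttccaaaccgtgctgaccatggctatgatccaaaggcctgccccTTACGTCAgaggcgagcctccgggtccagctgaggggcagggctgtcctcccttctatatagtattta
Pdk4: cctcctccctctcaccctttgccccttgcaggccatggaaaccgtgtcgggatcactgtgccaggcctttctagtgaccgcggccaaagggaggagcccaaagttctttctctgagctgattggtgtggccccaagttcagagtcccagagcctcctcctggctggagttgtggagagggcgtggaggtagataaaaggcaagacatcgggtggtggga
Cpt1a: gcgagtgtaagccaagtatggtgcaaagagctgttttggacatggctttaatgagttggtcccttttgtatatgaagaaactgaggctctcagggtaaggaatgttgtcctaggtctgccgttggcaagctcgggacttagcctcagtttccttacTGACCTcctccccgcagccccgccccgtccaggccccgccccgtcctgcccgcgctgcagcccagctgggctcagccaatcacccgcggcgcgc
Acadm: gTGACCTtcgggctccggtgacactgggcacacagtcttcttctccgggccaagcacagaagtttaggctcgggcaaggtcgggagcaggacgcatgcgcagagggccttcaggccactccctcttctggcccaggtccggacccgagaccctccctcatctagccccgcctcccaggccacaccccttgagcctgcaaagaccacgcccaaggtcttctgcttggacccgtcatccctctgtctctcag

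Motifs were searched on both strands in the 250 bases before the RefSeq start of 8 of the 9 genes. For Cd36 and Ppara all of these bases lie inside the gene as the count tables place it. The nuclear receptor core AGGTCA was found in Acadm, Cpt1a, Plin2 and Cd36, each time as TGACCT on the reverse strand, and 14.0% of 32851 promoters hold it. The direct repeat of that core with any 1 base between its copies, which therefore overlaps the core and is the element known for PPAR and its partner, was in none of the 8 and in 0.0335% of all promoters. The forkhead motif GTAAACA (3.17% of promoters) and the cAMP response element TGACGTCA (1.55%) were in none of the 8 either. The hypoxia motif ACGTG, in 16.6% of promoters, was in Ppargc1a. The capitals in Pck1 mark TTACGTCA, from 93 to 86 bases before the start, a variant of the cAMP element whose letters were chosen after the sequence was read, and 0.447% of promoters hold it. No motif searched was in the Pdk4 window.

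Per length, the 9 genes differed widely in WT crypts. FPKM here is the TMM-scaled CPM divided by the gene length of the tables in kb. Cpt1a, the carnitine transferase that admits long-chain fatty acids to mitochondria, was highest at 67.7 ± 8.87 FPKM (SD, n = 4). Acadm, the medium-chain acyl-CoA dehydrogenase, followed at 32.7 ± 4.59 FPKM, and Plin2, a coat protein of lipid droplets, at 21.02 ± 0.831 FPKM. Each of these lay apart from the next gene below it. Ppara, at 6.57 ± 0.921 FPKM, encodes the receptor itself. Below it, Ppargc1a (3.72), Pck1 (2.61), Cd36 (2.16), Angptl4 (1.16) and Pdk4 (0.322) each overlapped the neighbour above in their WT range. The WT organoids of both experiments had another order, with Acadm highest, then Cpt1a, Plin2, Ppara, Angptl4, Cd36, Ppargc1a, Pck1 and Pdk4. In the IEC experiment Acadm, Cpt1a and Plin2 overlapped their neighbours in this order, as did Ppara and Angptl4, and in the CAG experiment no neighbours overlapped. The experiments have separate count tables and WT libraries, so their levels are set side by side and not tested against each other.

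**Figure D1:**
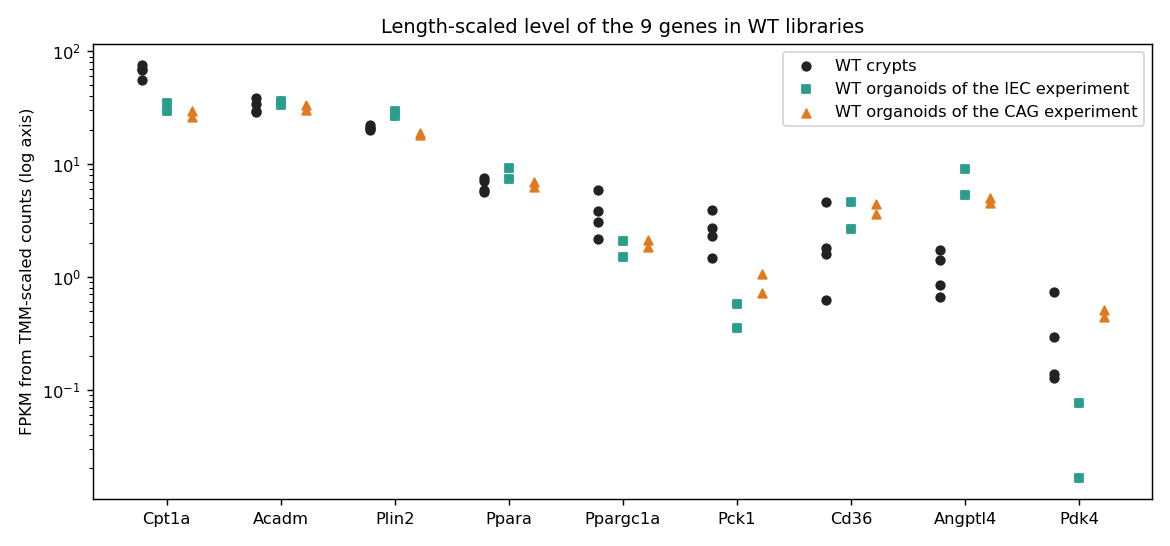
Level of the 9 genes in WT libraries, in FPKM on a log axis, with 1 point a library (4 crypt libraries, and 2 organoid libraries in each of the IEC and CAG experiments). Cpt1a, Acadm and Plin2 sit above 17 FPKM in all WT libraries, and Pdk4 is below 1 FPKM in all of them.

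From the low end of this order, Pdk4, Angptl4, Pck1 and Ppargc1a were higher on average in KO IEC crypts than in WT. Cd36, also low in this order, had a higher mean but overlapped between the genotypes. The abundant oxidation genes Cpt1a and Acadm hardly differed. Pdk4, Angptl4 and Pck1 were higher in every KO library than in every WT library. Of the 9 genes, 4 (these 3 and Ppargc1a) had an adjusted p under 0.05 in edgeR's fit, all higher in KO, where 6.96% of all 13427 tested genes were called and 4.3% were called higher. These 4 also differed at least 2-fold, as 1.79% of tested genes did with a call. All KO libraries lay above all WT libraries for 3 of the 9 genes and for 8.75% of the tested genes, and below them for none of the 9 and for 8.78% of the tested genes. None of the 4 was called without WT replicate 1, 2 or 3 or KO replicate 2 or 3, without the 2 WT libraries of the high class, or with the class or the enterocyte markers as a covariate. With the class as a covariate the log2 fold changes were 2.27 for Pdk4, 1.28 for Angptl4, 2.17 for Pck1 and 0.90 for Ppargc1a, and 2 of all 13427 genes were called. Ppara was called with DESeq2, without the filter and without KO replicate 4, and Cd36 was called without WT replicate 4, where its log2 fold change was 2.02. Ppargc1a also lost its call without KO replicate 4, with DESeq2 size factors and with scaling by total counts. Since the genes were picked with these values known, nothing is read from the counts.

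Ppara was at 21.7, 29.0, 22.7 and 27.4 CPM in WT crypts and at 38.3, 51.6, 38.8 and 26.5 CPM in KO IEC crypts, a log2 fold change of 0.62 (standard error 0.19). KO replicate 4 lay within the WT range and the other 3 above it. Ppargc1a, which encodes the coactivator PGC-1α, was at 25.2, 20.03, 14.4 and 38.6 CPM in WT and at 36.1, 51.7, 68.2 and 62.8 CPM in KO IEC (log2 fold change 1.15, standard error 0.30). Here KO replicate 1 lay just below WT replicate 4.

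Pdk4 encodes the kinase that shuts off pyruvate dehydrogenase and so keeps pyruvate from being burned. It was at 0.447, 1.03, 0.479 and 2.57 CPM in WT crypts, from 5 to 32 counts a library, and at 9.07, 8.46, 19.0 and 2.66 CPM in KO IEC crypts. The log2 fold change was 3.09 (standard error 0.68), but KO replicate 4 barely exceeded WT replicate 4. In libraries of the low mitochondrial class the difference was 4.21 on the log2 CPM scale, and in the middle class, which holds those 2 libraries alone, it was 0.05. Pck1 encodes the cytosolic enzyme that makes phosphoenolpyruvate for new glucose and for glycerol. Its WT levels were 7.95, 9.31, 5.03 and 13.5 CPM, against 24.7, 36.0, 95.5 and 37.9 CPM in KO IEC crypts, a log2 fold change of 2.44 (standard error 0.45). KO replicate 3 was far above the other KO libraries, and the within-class differences were 2.44 and 1.48. Angptl4, a secreted inhibitor of lipoprotein lipase, was at 4.64, 2.16, 2.79 and 5.69 CPM in WT and at 10.55, 13.4, 9.73 and 13.9 CPM in KO IEC crypts, a log2 fold change of 1.63 (standard error 0.30). Its 4 KO libraries were close to each other, and the within-class differences were 1.23 and 1.26.

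The genes of fatty acid uptake, storage and oxidation overlapped between the genotypes. Cd36, a fatty acid transporter of the cell surface, was at 5.72, 6.49, 2.23 and 16.6 CPM in WT and at 9.60, 14.8, 33.3 and 18.9 CPM in KO IEC crypts, a log2 fold change of 1.30 (standard error 0.55). WT replicate 4 exceeded KO replicates 1 and 2. Plin2 ran from 70.5 to 77.5 CPM in WT and from 76.5 to 114 CPM in KO IEC crypts (log2 fold change 0.31, standard error 0.13). Acadm ran from 113 to 151 CPM and from 119 to 175 CPM (0.25, standard error 0.15). Mean Cpt1a levels of WT and KO IEC crypts were 291 ± 38.2 and 285 ± 47.5 CPM (SD, n = 4 a group), the smallest difference among the 9 genes (-0.03, standard error 0.15).

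**Figure D2:**
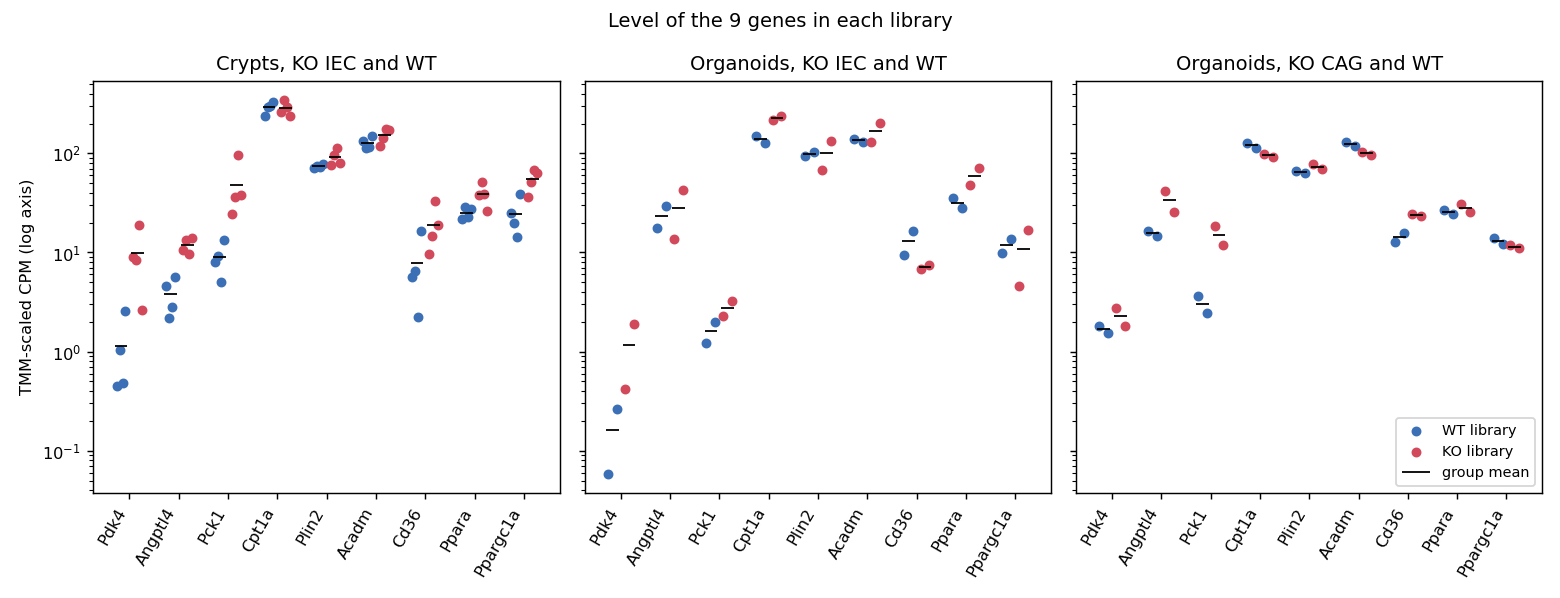
Level of the 9 genes in each library, in TMM-scaled CPM on a log axis, for the 3 experiments (blue WT, red KO, bars at group means). In the crypts all red points of Pdk4, Angptl4 and Pck1 lie above the blue points, and Cpt1a lies at 238 to 348 CPM in both groups.

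The level of enterocyte markers also differed between the genotypes in the crypts. All 8 enterocyte markers had a positive log2 fold change (median 1.53), and 1 of them passed the test in edgeR, while all 8 stem and Paneth cell markers had a negative one (median -0.61) and 2 passed it. With the mean log2 CPM of the enterocyte markers as a covariate, the log2 fold change of Pck1 was 1.01, that of Angptl4 0.97 and that of Pdk4 1.89. Ppara, at 0.57, moved little from its value of 0.62. Ppargc1a came to 0.08, Plin2 to 0.10, Acadm to -0.20 and Cd36 to -0.58, so that the sign of the last 2 turned. On this scale WT replicate 4, at 9.90, lay above KO replicate 1, at 9.80, and the other WT libraries lay below all KO libraries, so marker level and genotype overlapped in 1 pair of libraries only. Leukocyte markers (8 genes) summed to 24.2, 17.9, 12.3 and 47.6 CPM in WT and to 19.6, 22.5, 99.0 and 69.7 CPM in KO IEC crypts. Ptprc was the most abundant of them in all crypt libraries but KO replicate 3, where it was Cd8a. In 3 of the 8 libraries 1 of these markers had no count. Their sum was highest in KO replicate 3, in which the enterocyte markers, Pdk4, Pck1, Cd36 and Ppargc1a were highest too. KO replicate 4, with the next highest sum, had the lowest Pdk4 of the KO libraries. Fibroblast markers (6 genes) summed to 5.00, 5.92, 7.34 and 4.25 CPM in WT and to 1.16, 2.59, 1.06 and 4.22 CPM in KO IEC crypts. The part of these cells in the values was not tested.

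**Figure D3:**
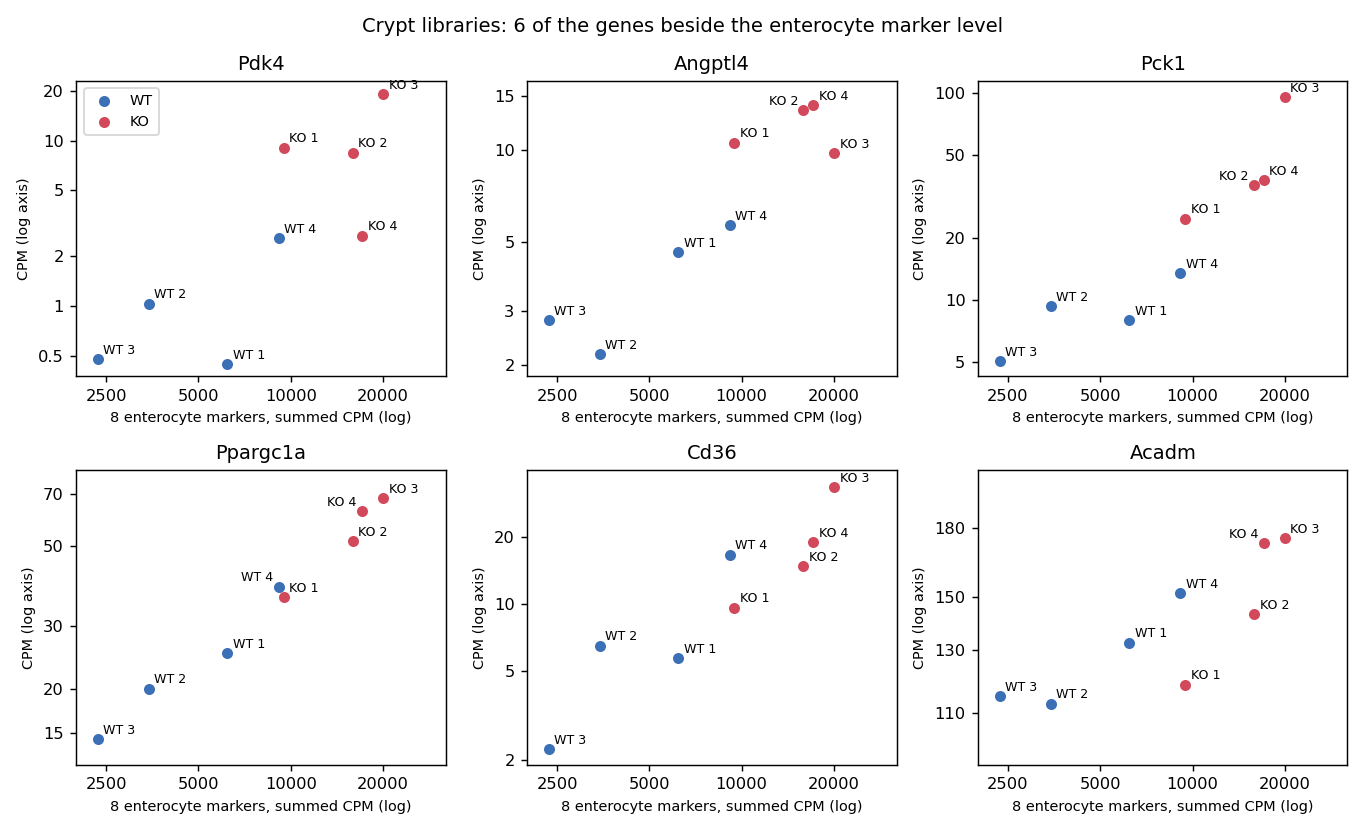
Level of 6 of the genes in CPM (log axis) against the summed CPM of 8 enterocyte markers (log axis) in the 8 crypt libraries, each point labelled with its genotype and replicate. Pdk4 in KO replicate 4 lies at the level of WT replicate 4, at 2.66 and 2.57 CPM, with 17112 against 9131 CPM of markers.

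In the KO IEC organoids, from the same genotype as the crypts, the 2 KO libraries stood far apart. The chi-square per degree of freedom between their counts was 109, and it was 25.6 for the WT pair, of similar depth. This value grows with depth, so it is not ranked against those of the other experiments. None of the 8 genes tested was called, and in all 1 gene of 13938 was, Cul4b itself (0.00717%). At an unadjusted p under 0.05 there were 2 of the 8 genes and 4.66% of all tested genes. The KO libraries lay above both WT libraries for 3 of the 8 genes and below for 1, where 19.4% of the tested genes lay above and 19.4% below. Ppara was at 35.4 and 28.1 CPM in WT and at 47.6 and 71.4 CPM in KO IEC organoids, a log2 fold change of 0.91 (standard error 0.27). Cpt1a was at 151 and 128 CPM in WT and at 219 and 237 CPM in KO IEC (0.71, standard error 0.17). The KO libraries of both genes lay above the WT libraries, as did those of Pck1, which was at 1.21 and 1.99 against 2.29 and 3.24 CPM (0.79, standard error 0.47).

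Cd36 was at 9.49 and 16.5 CPM in WT and at 6.80 and 7.55 CPM in KO IEC organoids (-0.86, standard error 0.36), lower in both KO libraries. Angptl4 was at 17.6 and 29.6 CPM in WT and at 13.5 and 42.6 CPM in KO IEC organoids (0.25, standard error 0.59), so that the 2 KO libraries enclosed the WT pair. The same held for Ppargc1a, at 9.89 and 13.7 against 4.63 and 16.99 CPM (-0.13, standard error 0.64), and for Plin2, at 93.5 and 104 against 67.9 and 135 CPM (0.03, standard error 0.35). Acadm was at 141 and 130 CPM in WT and at 132 and 201 CPM in KO IEC (0.30, standard error 0.25). The summed enterocyte markers were at 5184 and 9433 CPM in WT and at 4302 and 12163 CPM in KO IEC organoids, which also enclosed the WT pair. Stem and Paneth cell markers (8 genes) summed to 4018 and 6553.5 CPM in WT and to 2623 and 2003 CPM in KO IEC organoids, lower in both KO libraries. All 8 had a negative log2 fold change (median -1.11) and none passed in edgeR, with 2 at an unadjusted p under 0.05. Olfm4, a stem cell marker, was at 1759 and 2816 CPM in WT and at 1018 and 13.7 CPM in KO IEC. The enterocyte sum was lowest in the KO library with the lower Angptl4, Ppargc1a, Plin2 and Acadm. The part of these cell types in the values was not tested. Without KO replicate 2 the log2 fold changes were -0.80 for Angptl4, -1.34 for Ppargc1a, -0.54 for Plin2 and -0.04 for Acadm. Without KO replicate 1 they were 0.85, 0.52, 0.44 and 0.57 in the same order, and Acadm, Cpt1a and Ppara were called. In both settings the KO arm is a lone library, assumed to vary like the WT libraries.

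Pdk4 did not pass the filter on low counts in this experiment. It had 1 and 4 counts in the WT and 7 and 28 counts in the KO IEC libraries, at 0.0575, 0.265, 0.421 and 1.89 CPM. The 5 counts in WT and 35 in KO IEC gave a ratio of 7.23 with an exact 95% interval of 2.82 to 23.6, which covers counting error only and not the spread between cultures.

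In KO CAG organoids, where the deletion was induced in culture, 5 of the 9 genes were called by edgeR, 3 higher and 2 lower, in an experiment in which 31.5% of 13598 tested genes were called, 18.1% higher and 13.4% lower. As in the crypts, nothing is read from these counts, since the genes were picked with the values known. Of these 5, 2 (Pck1 and Angptl4) also differed at least 2-fold, as 8.6% of tested genes did with a call. KO libraries lay above both WT libraries for 5 genes and below for 3, where 35.4% and 34.3% of tested genes did so. Pck1 was at 3.60 and 2.46 CPM in WT and at 18.4 and 11.8 CPM in KO CAG organoids, a log2 fold change of 2.29 (standard error 0.30). Angptl4 was at 16.6 and 14.7 CPM in WT and at 41.3 and 25.8 CPM in KO CAG (1.08, standard error 0.21). Without KO replicate 1 the log2 fold change of Angptl4 was 0.70, under 2-fold. Cd36 was at 12.9 and 15.9 CPM in WT and at 24.3 and 23.2 CPM in KO CAG (0.72, standard error 0.16). These 3 genes of glucose making, lipase inhibition and fatty acid uptake were higher in both KO libraries.

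Of the 2 mitochondrial oxidation genes among the 9, Cpt1a was at 128 and 113 CPM in WT and at 99.1 and 92.5 CPM in KO CAG organoids (-0.33, standard error 0.09), and Acadm was at 132 and 118 against 104 and 95.9 CPM (-0.32, standard error 0.09). Both were lower in both KO libraries, and neither was called without WT replicate 1 or with DESeq2's Wald test. Cd36 was not called without WT replicate 1 either. The other 4 genes were not called. Plin2 was at 65.8 and 63.1 against 77.9 and 69.2 CPM (0.19, standard error 0.09), and Pdk4 at 1.80 and 1.55 against 2.77 and 1.82 CPM (0.41, standard error 0.39), from 12 to 20 counts a library. The higher KO library set most of the Pdk4 value, which was 0.10 without it. Ppara was at 26.6 and 24.3 against 31.2 and 25.4 CPM (0.14, standard error 0.14) and overlapped, while Ppargc1a was at 13.9 and 12.1 against 11.9 and 11.0 CPM (-0.19, standard error 0.18). Summed enterocyte markers were at 4589 and 4845 CPM in WT and at 12259 and 9617 CPM in KO CAG, and 7 of the 8 markers rose (median log2 fold change 1.22). Stem and Paneth cell markers summed to 6408 and 6608 CPM in WT and to 7982.5 and 8200.2 CPM in KO CAG, and 3 of the 8 rose and 2, Lgr5 among them, fell. Leukocyte markers summed to 0.721 and 0.517 CPM in WT and 5.41 and 3.45 CPM in KO CAG. Csf1r alone held 4.71 and 2.49 CPM of the KO CAG sums, and in each KO library 4 of the 8 markers had no count. Csf1r, the 1 of the 8 that could be tested, rose by 2.77 on the log2 scale (standard error 0.52, adjusted p = 0.00292, edgeR). The part of these cell types in the differences was not tested.

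**Figure D4:**
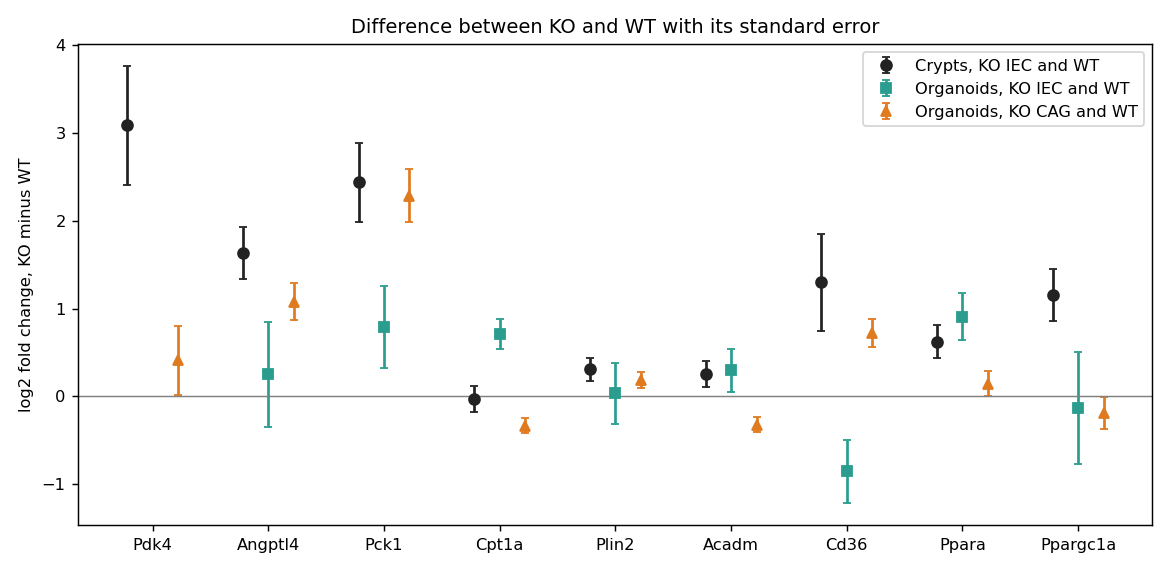
Difference between KO and WT of the 9 genes on the log2 scale, with bars of 1 standard error either way, from edgeR's fit of each experiment (Pdk4 could not be tested in the IEC organoids). Pck1 lies above 0 in all 3 experiments, at 2.44, 0.79 and 2.29, and Cd36 lies at 1.30, -0.86 and 0.72.

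Side by side, the 3 experiments shared few of these differences. Pck1 was the 1 gene of the 8 tested in all 3 experiments whose KO libraries lay above all WT libraries in each, as did those of 2.44% of the 12478 genes tested in all 3. None lay below in each, where 2.58% of those genes did. The KO libraries of Pdk4 also lay above all WT libraries in each experiment, with the low counts given above for the IEC organoids. Those of Angptl4 lay above in the crypts and the KO CAG organoids but not in the KO IEC organoids. Cpt1a and Cd36 went in opposite directions in the 2 organoid experiments, Cpt1a up in KO IEC and down in KO CAG and Cd36 the reverse, as 7.95% of the 13136 genes tested in both did in one order or the other, and the difference itself was not tested. The 5 genes whose level over the 16 libraries, after the mean of each experiment was taken off, was most like that of Angptl4 were Kalrn (r = 0.97), Cxadr (0.97), B4galt5 (0.95), Slc5a1 (0.95) and Pdzk1 (0.95). Among the other 7 genes tested throughout, r with Angptl4 was highest for Ppargc1a (0.81) and Pck1 (0.80) and was -0.13 for Cpt1a. By this r Ppargc1a ranked 510 and Pck1 547 among the 12478 genes. Slc5a1, a glucose transporter, is one of the 8 enterocyte markers. The correlations are a description over libraries that differ in depth and in marker levels within an experiment, and their part in the correlations was not tested.

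The other genes of the pathway, 108 in 9 lists by role, do not include the 9 genes above. These lists too were made with earlier results of these data known, so their counts are set beside those of all genes as a description, and the adjusted p of a single gene is that over all tested genes. In KO IEC crypts 7 of 89 tested genes (7.87%) had an adjusted p under 0.05 in edgeR's quasi-likelihood test, 6 higher and 1 lower, close to the 6.96% of all genes. Their median log2 fold change was 0.23, and that of all tested genes was -0.01. With the enterocyte markers as a covariate the median of the pathway genes was -0.01. In KO IEC organoids none of 92 passed, with 3 at an unadjusted p under 0.05 and none called by DESeq2, and the median was 0.19 against -0.01. That median was 0.37 without KO replicate 1 and -0.10 without KO replicate 2, so its sign rests on 1 library. In KO CAG organoids 43 of 90 passed (47.8%, against 31.5% of all genes), 25 higher and 18 lower, with a median of 0.07 against 0.00121. This median was -0.02 without KO replicate 1 and -0.01 without WT replicate 2, so its sign too rests on 1 library.

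The 6 genes that rose in the crypts came from 4 roles. Hnf4g, a nuclear receptor of enterocytes, was at 141, 179, 147 and 226 CPM in WT and at 235, 376, 397 and 296 CPM in KO IEC crypts, without overlap (log2 fold change 0.91, standard error 0.20, adjusted p = 0.0438, edgeR). Irs2, the adaptor of the insulin receptor that fasting induces in liver, was at 25.99, 29.8, 22.7 and 25.3 against 52.0, 33.5, 42.6 and 34.8 CPM (0.65, standard error 0.16, adjusted p = 0.0461, edgeR). Acsl5, which activates fatty acids for storage, rose by 1.13, the carnitine acetyltransferase Crat by 0.94, the droplet protein Plin3 by 0.66 and the fasting-responsive factor Foxo3 by 0.42 (adjusted p from 0.0488 to 0.0499, edgeR). Pck2, the mitochondrial counterpart of Pck1, fell by 0.59 on the log2 scale (standard error 0.13, adjusted p = 0.0441, edgeR), from 62.6 to 74.0 CPM in WT to 35.9 to 53.9 CPM in KO IEC. The 2 genes for the same reaction thus differed in opposite directions in the crypts. These calls depended on the libraries, since none of the pathway genes was called without WT replicate 1, 2 or 3 or KO replicate 2 or 3, without the 2 WT libraries of the high class, or with the class or the enterocyte markers as a covariate. In the 5 fits without 1 of these libraries 2 to 20 of all genes were called, and the median of the pathway genes was 0.18 to 0.24. With the class as a covariate that median was 0.19. Without WT replicate 4 and without KO replicate 1, 25 and 22 were called.

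By role, few genes passed in the crypts, where 48.9% of all tested genes had a log2 fold change above 0. Of the 10 peroxisomal oxidation genes tested, all 10 had a log2 fold change above 0 (median 0.64) and none passed, among them Ehhadh, a bifunctional enzyme of that pathway, at 0.80 (standard error 0.27, adjusted p = 0.0862, edgeR). Of 20 mitochondrial oxidation genes 17 were above 0 with a median of 0.19, and 1, Crat, passed. Cpt2, Acadl, Acadvl, Acsl1 and Ucp2 had 0.38, 0.10, 0.33, 0.53 and 0.14 and did not pass. Of 14 genes of fatty acid binding and droplets 2 passed (median 0.54), and Fabp1, at 1.56 with a standard error of 0.63, did not. G6pc, the last enzyme of glucose release, was at 11.9, 3.67, 1.196 and 15.3 CPM in WT and at 16.5, 30.2, 67.0 and 23.3 CPM in KO IEC, without overlap, and did not pass (2.09, standard error 0.68, adjusted p = 0.0776, edgeR). The receptors and partners Ppard (0.35), Pparg (0.23), Rxra (0.35) and Hnf4a (-0.02) and the coactivator Ppargc1b (0.17) did not pass.

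In KO CAG organoids, where 18.1% of all tested genes rose and 13.4% fell, 8 of 14 genes of fatty acid binding, uptake and droplets rose and 1 fell. Fabp1, Fabp2 and Slc27a4 of this list are abundant in enterocytes, and the summed enterocyte markers were at 4589 and 4845 CPM in WT and at 12259 and 9617 CPM in KO CAG, with 7 of 8 called higher. Their part in the rise was not tested. Cidec, a protein of droplet growth, was at 6.37 and 5.69 CPM in WT and 21.2 and 18.4 CPM in KO CAG (1.71, standard error 0.19, adjusted p = 0.000146, edgeR). The intestinal fatty acid binding protein Fabp2 rose by 1.69, the transporter Slc27a4 by 1.39, Acsl5 by 1.09 and Fabp1 by 0.67. Hilpda, an inhibitor of fat breakdown, and the lipase Pnpla2 had -0.56 and 0.15 and did not pass. Of 10 peroxisomal genes 5 rose and 1 fell. Crot rose by 0.85, Hsd17b4 by 0.65 and Ehhadh by 0.36. Of 20 mitochondrial genes 7 passed, near the share of all tested genes (31.5%). Of these, 4 rose, Crat by 0.95, Acadl by 0.63, Mlycd by 0.57 and Ucp2 by 0.35, and 3 fell, while Cpt2, Acadvl and Acsl1 (0.06, 0.01 and 0.02) did not pass. So 5 of the 10 peroxisomal genes rose in the organoids in which Cpt1a and Acadm were lower.

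Of the 5 genes of ketone bodies 2 fell and 1 rose there. Acat1 fell by 0.62 and Oxct1, which uses ketone bodies, rose by 0.76. Of 14 genes of the pyruvate gate and gluconeogenesis 6 fell and 1 rose. Pdk1, a sister kinase of Pdk4 known as a hypoxia target, was at 287 and 284 CPM in WT and at 86.2 and 120 CPM in KO CAG (-1.46, standard error 0.13, adjusted p = 4.7e-05, edgeR). Fbp1 fell by 1.43, Pck2 by 0.62 and Pdk2 by 0.47, while Pdk3 (-0.18) and G6pc (0.07) did not pass. Pcx, which makes the oxaloacetate that Pck1 uses, rose by 1.52 (standard error 0.12, adjusted p = 3.0e-05, edgeR), from 17.4 and 18.6 to 55.4 and 48.2 CPM. Thus Pck1 and Pcx were higher in KO CAG organoids and Pck2 and Fbp1 lower.

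Among the fasting regulators of these organoids Klf15 and Creb3l3 rose, by 1.53 and 1.51, and Txnip and Irs2 fell, by 0.83 and 0.71. Creb3l3, a membrane-bound factor that PPARα works with in liver, went from 92.5 and 98.9 to 312 and 232 CPM (standard error 0.13, adjusted p = 4.1e-05, edgeR). Klf15 stayed low, from 1.202 and 1.29 to 4.30 and 3.07 CPM. Foxo1 had -0.14 and did not pass. Among 14 receptors and coregulators 4 rose and 2 fell. Ppard, the receptor that is abundant in intestine, rose by 0.69 (standard error 0.10, adjusted p = 0.000760, edgeR), Hnf4g rose by 0.53 and Lpin1 fell by 0.54. Pparg, Rxra, Hnf4a and Ppargc1b had 0.14, 0.12, -0.23 and 0.05 and did not pass. Lmf1, which matures lipoprotein lipase, fell by 0.65. Lpl itself, Fgf21 and Cyp4a10 had too few counts to be tested here. Of 4 omega-oxidation genes 1 could be tested and did not pass.

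**Figure D5:**
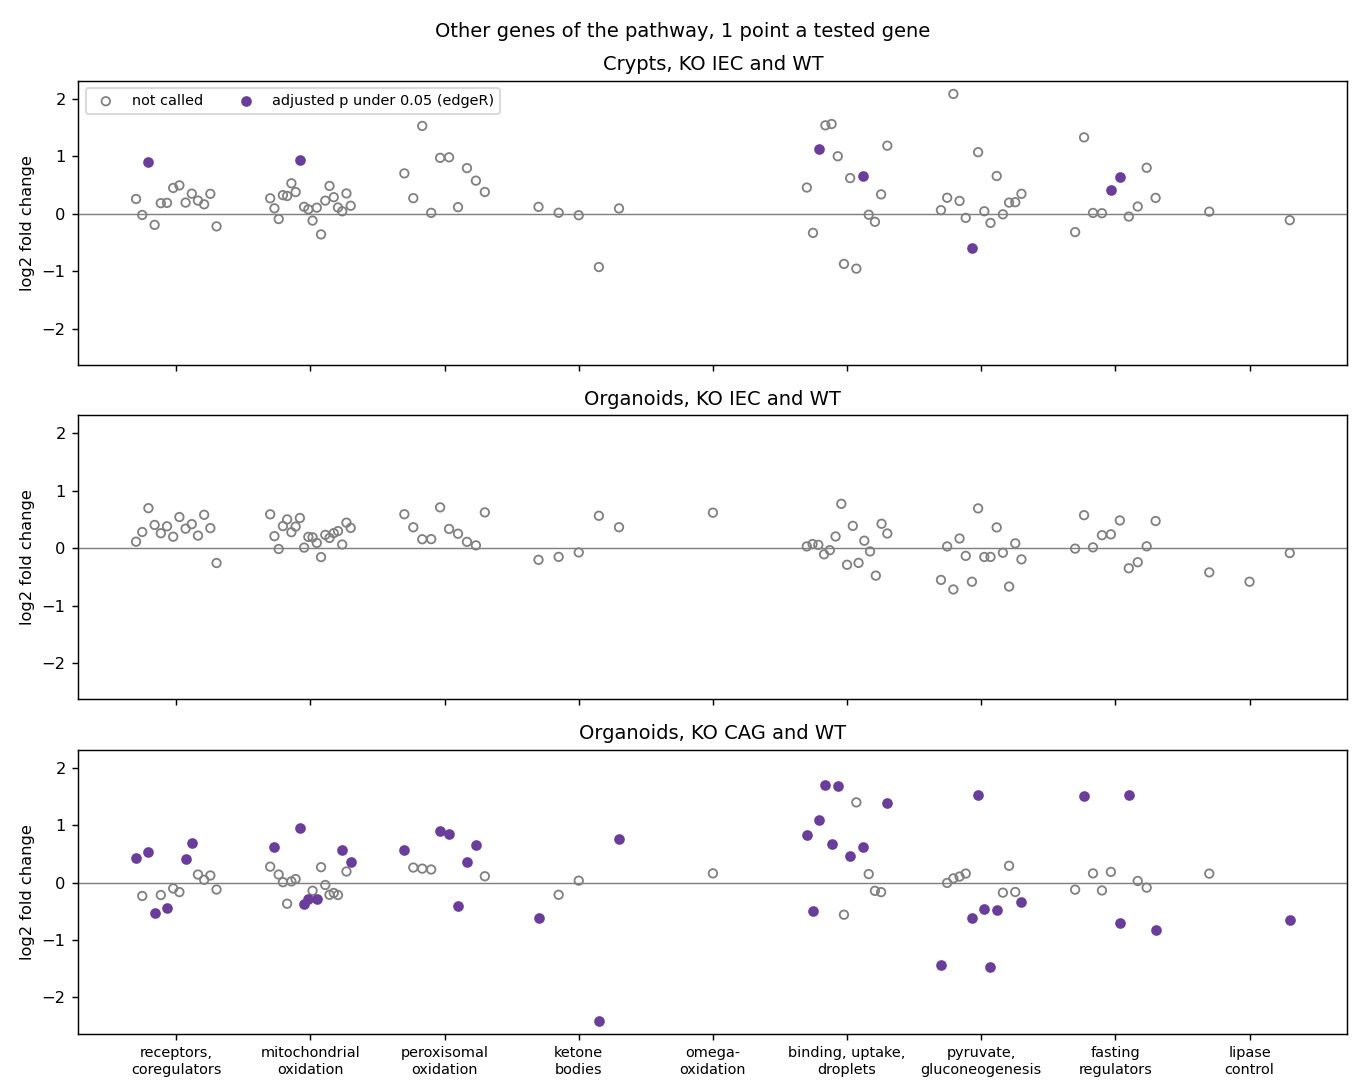
Log2 fold change of each tested gene of the 9 other lists in the 3 experiments, with filled points for an adjusted p under 0.05 in edgeR. The crypts have 7 filled points, the IEC organoids none and the CAG organoids 43.

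In KO IEC organoids no list held a called gene. Pcx, for example, was at 22.5 and 21.5 CPM in WT and 36.2 and 35.0 CPM in KO IEC (0.69, standard error 0.19, adjusted p = 0.856, edgeR). The median log2 fold change was 0.35 for receptors (13 of 14 above 0), 0.29 for peroxisomal genes (10 of 10), 0.25 for mitochondrial genes (18 of 20), 0.13 for fasting regulators (7 of 10) and 0.06 for binding and droplet genes (9 of 15). It was -0.07 for ketone body genes (2 of 5), -0.14 for the pyruvate gate and gluconeogenesis (5 of 14) and -0.42 for lipase control (0 of 3), where 48.8% of all tested genes were above 0. Over all 9 lists the median was 0.19, and it moved to 0.37 without KO replicate 1 and to -0.10 without KO replicate 2. In both settings the KO arm is a lone library.

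Whether the effect of the deletion differed between experiments was tested for 25 genes of the lists as an interaction in 1 fit of all 16 libraries, 50 tests in all, with p-values adjusted over 15585 genes in each contrast. Pdk1 was the 1 gene that passed. Its log2 fold change was lower in KO CAG organoids than in KO IEC crypts by -1.32 (standard error 0.24, adjusted p = 0.0305, edgeR), where 0.372% of all genes passed, and against the KO IEC organoids the difference was -1.34 (standard error 0.27, adjusted p = 0.0583). The wide errors for genes such as Fabp1 (-0.90, standard error 1.01) and G6pc (-2.02, standard error 1.19) leave large differences between the models undetectable here.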

How the data were processed

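Novogene prepared the libraries and sequenced them. The authors deposited raw read counts per gene, with no normalization, in one table for each experiment, together with gene lengths, which serve here only for FPKM. The submitters' processing notes name HISAT2 2.0.5 and featureCounts 1.5.0-p3. Genome build, annotation and strand use are not given in the sources used here. The positions of 7 of the 9 genes equal those of GENCODE M21 on GRCm38, and none of the 9 shares exons with another gene there.

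The 3 experiments were fitted separately for KO against WT, with no replicate block in the model. After filterByExpr and TMM scaling, genes were tested with edgeR 4.0.16's quasi-likelihood F test in R 4.3.3. P-values were adjusted by Benjamini-Hochberg across the genes tested, and an adjusted p under 0.05 made a call. Standard errors are the log2 fold change over the square root of F. A prior count of 2 was added for log2 CPM. The fit was tested on simulated counts.

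The 9 genes, the 9 lists (108 genes) and the marker lists were chosen with earlier results of these data known. Named are the 9 genes, preset anchor genes of each list, and up to 3 called genes of each list with the largest change in each experiment. A gene named in one experiment may be given in the others. Some genes that this rule names are not reported here. Alternatives were other scalings, filters and calls, DESeq2 1.42.0, a replicate block, covariates and leaving out each library. RefSeq promoters were matched by symbol for 8 of the 9 genes.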

Additional observations from a re-analysis of the deposited data

Results flagged for a closer look

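In a group of 4 libraries, 1 library stood far from the other 3 for 3 genes of the crypts, out of 68 groups examined, where chance gives about 1 in 20. Cpt2 was at 136.7 CPM in WT replicate 4 and Fbp1 at 28.6 CPM in the same library, each the highest of the WT libraries. Ucp2 was at 846 CPM in KO IEC replicate 3, the highest of the KO libraries.

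The effect of the deletion on Pdk1 differed between KO CAG organoids and KO IEC crypts by -1.32 on the log2 scale (edgeR interaction term, adjusted p = 0.0305).

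For 4 of 28 genes examined every KO library moved one way in one experiment and the other way in another. Of all genes tested in both, 7.95% did so between the 2 organoid experiments and 3.1% between the crypts and the KO CAG organoids, so such genes were not rare. The log2 fold change of Cpt1a was 0.71 in organoids of KO IEC and -0.33 in those of KO CAG. That of Cd36 was -0.86 with KO IEC and 0.72 with KO CAG in organoids. Irs2 had 0.65 in KO IEC crypts and -0.71 in KO CAG organoids, and Lpin1 had 0.41 in KO IEC and -0.54 in KO CAG organoids. These differences between experiments were not tested.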

How the results depend on the processing

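Of 162 alternative values in the crypts 146 moved by less than the spread between replicates, of 72 in the IEC organoids 67, and of 81 in the CAG organoids 75, and no called value changed sign. When each crypt library was left out in turn, the log2 fold change ranged from 2.55 to 3.92 for Pdk4, from 1.89 to 2.73 for Pck1 and from 1.44 to 1.91 for Angptl4.

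The number of genes called in the crypts was 934 and that of pathway genes 7. They were 1479 and 18 without the filter, 2355 and 23 with DESeq2's Wald test, 240 and 1 with a fold change of at least 2, 4 and 0 with the replicate block, 2 and 0 with the mitochondrial class as a covariate, and 1 and 0 with the enterocyte markers as a covariate. They were also 1 and 0 without the high class, a setting chosen after seeing the data. With DESeq2's size factors 3 pathway genes were called and with total counts 2. Total counts also turned the split of all crypt calls from 577 higher and 357 lower to 324 and 311, as the median log2 fold change moved to -0.09. Leaving out 1 library gave 2 to 2468 genes and 0 to 25 pathway genes, fewest (2) without KO replicate 2 or 3 and most without KO replicate 1 (2468) or WT replicate 4 (1864). They were 3, 11 and 20 without WT replicates 2, 3 and 1, and 513 without KO replicate 4. The cause of these shifts was not tested.

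In the IEC organoids 1 gene was called, 223 without the filter and 26 with DESeq2's Wald test, and leaving out 1 library gave 0 to 2322 genes and 0 to 29 pathway genes. In the CAG organoids 4278 genes and 43 pathway genes were called, 1169 and 10 with a fold change of at least 2, and 2554 genes with DESeq2's Wald test. Leaving out 1 library gave 2789 to 5177 genes and 32 to 50 pathway genes there.

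WT and KO libraries share only their replicate numbers. Same-numbered libraries did not deviate together throughout in the crypts, with correlations of -0.04, 0.19, -0.40 and 0.43, and 2 pairs each in the organoids gave 0.34 and 0.07. With the replicate block 1 gene and 0 pathway genes were called in the IEC organoids, and 4932 and 45 in the CAG organoids. Of the 9 genes, the 4 called in the crypts were not called with the block. Depth limits Pdk4 most, with 1 to 28 counts in the IEC organoids. A fit that left 1 library in a group assumed that this library varied like the others.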
